A study of Homo sapiens with 6 samples.

Results

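The probes described here are the TCONS probes, those gene probes of the array whose transcript identifier starts with TCONS. They numbered 6153 of 50599 gene probes (12.2%) and carried 6073 identifiers. Identifiers of this form are given by transcript assembly from RNA sequencing reads. The identifiers came in 2 forms, TCONS_ followed by a number (4986 probes) and TCONS_l2_ followed by a number (1167 probes), and what the l2 mark stands for is not given in the sources used here. The rule used no measured value. No RefSeq gene symbol could be paired with any TCONS identifier, and 3 identifiers ended in a gene name (GNASAS, HOTTIP and HOTAIR). The genome positions and the probe sequences were not analysed here, so that neither the neighbouring genes nor the exons that the probes lie in are given.

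Long intergenic noncoding RNAs are transcripts that lie between protein coding genes and carry no long open reading frame. Many are spliced and polyadenylated like messenger RNAs, and as a class they are known for low expression and for strong differences between cell types. Some act on chromatin, such as HOTAIR, whose RNA is transcribed from the HOXC cluster and has been linked to Polycomb complexes, and HOTTIP, which lies at the distal end of the HOXA cluster. Most transcripts of the class have no known function.

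RNA was taken from 3 cultures of A673/TR/empty cells, the control cells, and from 3 cultures of A673/TR/LOX-PP cells, each hybridised to its own Agilent 1-colour array. A673 is a Ewing sarcoma cell line that carries the EWS/FLI1 fusion. Cells of both groups hold the tetracycline repressor (TR) and a lentiviral vector, which was empty in the control cells and held the cDNA of the lysyl oxidase propeptide (LOX-PP) in the others. The labels give doxycycline at 1 µM for 72 h for all samples, whereas the methods of the study name it clearly only for the LOX-PP cells, so whether the control cells received it is not settled. The study worked with selected clones, and which clone, or whether a mixed population, went on the arrays is not stated, so that clone and LOX-PP cannot be told apart.

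The share of gene spots called well above background ran from 56.9% to 74.8% over the 6 arrays, and no gene spot was saturated. Slide 1 and scan 1 held 5 of the arrays, and LOX-PP replicate 1 was alone on slide 2 and scan 2. All 10 Ewing sarcoma markers were above background on every array, with a median level per array from 3.98 to 4.46. Of the markers of other cell types, 4 of 4 for leukocytes, 3 of 4 for epithelium, 2 of 3 for endothelium and 2 of 3 for muscle were above background on every array, at median levels from -4.40 to -1.50. The LOX probe was not higher on the LOX-PP arrays (-0.70 ± 0.58, SD, n = 3) than on the control arrays (0.13 ± 0.22, SD, n = 3) on the log2 scale, with an adjusted p of 0.217 in limma. The vector held only the propeptide part of the LOX cDNA, and whether the LOX probe lies in that part was not analysed. Apart from the arrays, the study reported induced LOX-PP mRNA by RT-PCR and LOX-PP protein in the culture medium. Every direction below therefore rests on the labels. With 3 arrays per group, their number limits the precision. Levels are given as the log2 processed signal minus the 75th percentile of the array, so that 0 is the level of a bright probe and most TCONS probes are negative. The brightness of a probe depends on its sequence as well as on its RNA, so that the levels of different probes do not rank RNA amounts.

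The TCONS probes were dim. Their mean log2 processed signal over the 6 arrays had a median of 6.43, with quartiles at 5.57 and 7.73, whereas the median was 11.4 over the 25219 probes with an NM_ identifier (RefSeq messenger RNAs) and 8.29 over the 3962 with an NR_ identifier (RefSeq noncoding RNAs). Only 120 TCONS probes (1.95%) had a mean signal above the 75th percentile of the arrays, compared with 42.3% of the NM_ probes. The TCONS_l2_ probes reached further up. Of them, 73 (6.26%) lay above that percentile, compared with 47 of the probes without l2 (0.943%). In the highest step of signal, from 18 to 19, there were 13 TCONS_l2_ probes and 0 of the others.

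**Figure D1:**
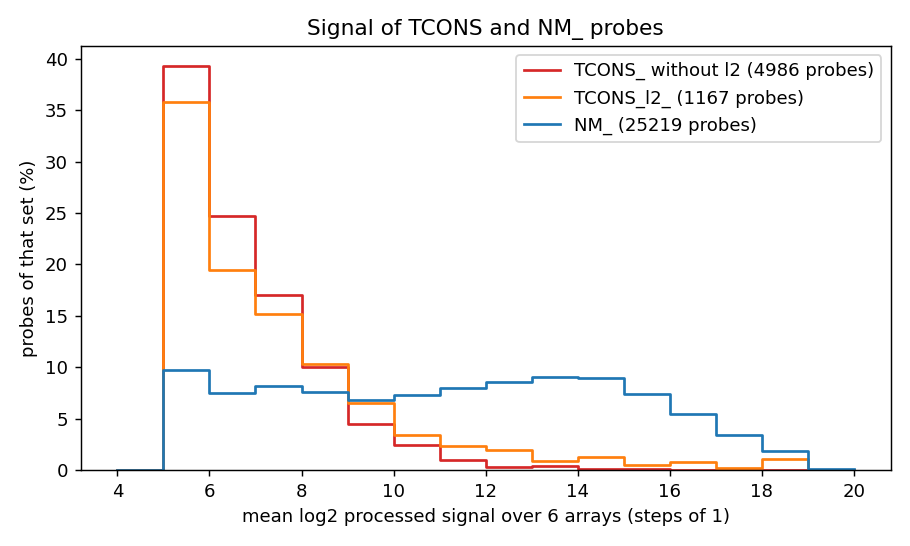
Mean log2 processed signal over the 6 arrays on the x axis, in steps of 1, against the percent of each set of probes on the y axis, for TCONS_ probes without l2, TCONS_l2_ probes and NM_ probes. Both TCONS sets pile up at the dim end, with medians of 6.39 and 6.68, while the NM_ probes spread to the bright end.

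Next, detection was compared between the arrays. A probe counted as detected where the extraction software called it well above background. For the control cells 47.7%, 29.6% and 20.9% of the TCONS probes were detected in replicates 1 to 3, and on the LOX-PP arrays 44.4%, 24.5% and 24.2%. Replicate 1 was the highest of both groups, and the groups overlapped (32.7 ± 13.6% and 31.0 ± 11.6%, SD, n = 3 each, exact two-sided permutation test, p = 0.9, where the smallest p possible is 0.1). The background differed between arrays, with a median signal of the negative control spots of 25.1, 29.3 and 86.4 in replicates 1 to 3 of the control cells and of 8.67, 108 and 34.8 in those of the LOX-PP cells, and its part in the number detected was not tested.

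**Figure D2:**
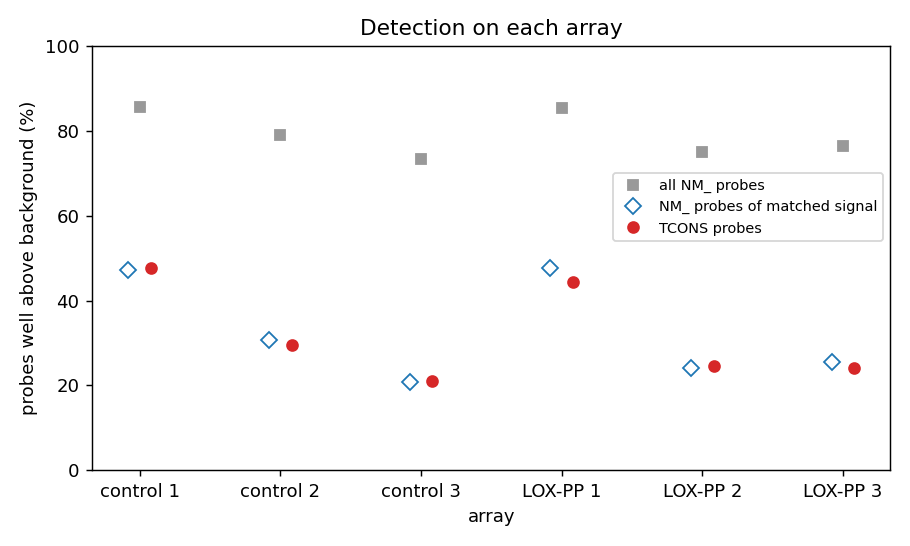
Percent of probes well above background on the y axis for each of the 6 arrays on the x axis, as red circles for TCONS probes, open diamonds for NM_ probes weighted to the same signal and grey squares for all NM_ probes. The TCONS values, from 20.9% to 47.7%, lie beside those of the NM_ probes of matched signal and far below those of all NM_ probes.

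At equal signal, the shares of TCONS and messenger RNA probes detected lay close together on every array. The call and the matched signal come from the same spots, so the match by itself brings these shares together. The comparison therefore cannot show that TCONS probes are detected like messenger RNA probes. The NM_ probes, weighted to the TCONS probes in steps of 0.5 of mean log2 signal, were detected at 47.1%, 30.8% and 20.7% on the control arrays, where the TCONS values are given above, and at 47.8%, 24.0% and 25.6% on the LOX-PP arrays. The difference, TCONS minus matched NM_, ran from -3.39 to 0.568 percentage points with a mean of -0.771 ± 1.53 (SD, n = 6), and was not distinguished from 0 (exact two-sided sign permutation test, p = 0.281). Without the match, from 73.4% to 85.7% of the NM_ probes were detected.

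Of the 6153 TCONS probes, 2726 (44.3%) were detected on no array and 916 (14.9%) on all 6, compared with 10.8% and 69.2% of the NM_ probes. Detection on all 6 arrays was found for 259 TCONS_l2_ probes (22.2%) and for 657 of the others (13.2%). Among the 557 TCONS probes detected on exactly 2 arrays, 393 (70.6%) were detected on replicate 1 of both groups, 1 array of each. Likewise, of the 824 detected on a single array, 379 were detected on control replicate 1 and 324 on LOX-PP replicate 1. Thus most of the sparse detection lay on the same pair of arrays, which do not share a slide. These 2 arrays also had the highest shares of all gene spots well above background, 74.8% and 74.1%. The pattern was not counted for other probes, so it is not shown to be particular to the TCONS probes. Detection on every array of 1 group and none of the other was rare. It was found for 9 probes on the LOX-PP side and 4 on the control side, together 13 of 6153, while 0.287% of all gene probes had such a pattern. The levels of such probes could overlap. TCONS_00018320, detected on the control arrays only, had levels of -5.07, -4.92 and -3.70 there and -6.98, -3.69 and -4.42 on the LOX-PP arrays. In the test described next, 4 of the 9 and 0 of the 4 had an adjusted p under 0.05.

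The comparison between the arrays asked which transcripts differed between A673/TR/LOX-PP and A673/TR/empty cells. The test took in probes detected on 3 or more arrays, 2046 of the TCONS probes among 32647 in all, and 4107 TCONS probes were not tested. In limma with Benjamini-Hochberg adjustment over all 32647 probes, 46 TCONS probes (2.25%) had an adjusted p under 0.05, where the share over all tested probes was 5.66%. Of these, 36 were higher on the LOX-PP arrays (1.76% of the tested TCONS probes) and 10 were lower (0.489%). Over all tested probes, 3.31% had such an adjusted p and were higher, and 2.36% had it and were lower. Without adjustment 230 TCONS probes (11.2%) had a p under 0.05, compared with 21.3% of all tested probes. The values of both groups did not overlap for 301 (14.7%) of the TCONS probes and for 29.5% of all tested probes.

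These counts rested on single arrays and on the scaling. Without control replicate 1 or control replicate 2 the number fell to 11 in each case, of 1586 and 1777 tested. It was 31 of 1990 without control replicate 3, 20 of 1923 without LOX-PP replicate 2 and 27 of 1964 without LOX-PP replicate 3. Without LOX-PP replicate 1, that is within slide 1, it was 83 of 1623. The shares over all tested probes moved likewise, at 1.69%, 1.51%, 4.04%, 2.82%, 3.14% and 7.86% in that order. Under quantile normalization 21 were higher and 23 lower, and 29 of these 44 were among the 46. Over all tested probes 5.79% then passed the threshold, and 48.0% of those were higher, against 58.4% in the main fit.

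**Figure D3:**
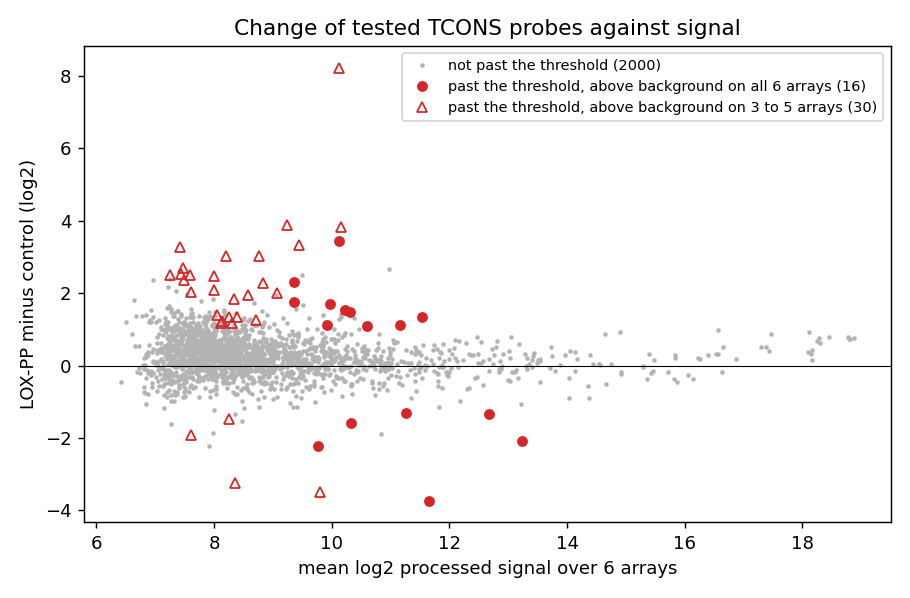
LOX-PP minus control on the log2 scale (y axis) against the mean log2 processed signal over 6 arrays (x axis) for the 2046 tested TCONS probes. Grey points did not pass the threshold, filled circles passed it and were above background on all 6 arrays (16 probes), and open triangles passed it and were above background on 3 to 5 arrays (30 probes); most of the probes past the threshold lie above 0.

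The median change over the tested TCONS probes was 0.26 on the log2 scale, and 71.2% of them had a change above 0. This median lay near that of NM_ probes of matched signal (0.29), and above that of all tested probes (0.13) and of all NM_ probes (0.04). The median of the NR_ probes was 0.29 without matching and 0.37 when weighted to the signal of the TCONS probes. Under quantile normalization the TCONS median was -0.08, with -0.05 for the matched NM_ probes and -0.03 for all tested probes. The direction of the TCONS median thus turned with the scaling. It was 0.04 without LOX-PP replicate 2, 0.12 without control replicate 2, 0.41 without control replicate 3 and 0.43 without LOX-PP replicate 1. The spread between replicates was also close to that of messenger RNA probes of the same signal, with a median pooled SD of 0.565 for the TCONS probes and 0.549 for the matched NM_ probes, against 0.323 for all NM_ probes.

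The shares past the threshold lay further apart. The share was 8.95% for the NM_ probes of matched signal, of which 64.5% were higher, against 2.25% for the TCONS probes. In the steps of signal from 6 to 8, 8 to 10 and 10 to 12 the TCONS probes were at 1.32%, 2.51% and 4.56% and the NM_ probes at 8.10%, 10.1% and 10.67%. Both forms of identifier lay under their own matched NM_ probes, at 1.92% against 9.07% without l2 and at 3.29% against 8.58% with l2. Among probes of 1 name prefix, A_21, the TCONS and NM_ shares lay close together once weighted to the same signal, and were 2.30% and 3.49% before weighting. Nearly all tested TCONS probes (1958 of 2046) have this prefix, and of the 459 tested NM_ probes with that prefix 16 were past the threshold, which is 2.22% when weighted to the signal of the TCONS probes, where 45 TCONS probes lie in steps of signal without such an NM_ probe. The A_21 TCONS probes were at 2.32% on the same scale, NM_ probes with other prefixes between 3.57% and 15.2%, and NR_ probes of prefix A_21 at 6.16%. Probes with none of these 3 kinds of identifier were at 4.30% with prefix A_21 (2696 tested). With other prefixes they were between 2.58% and 5.50%, such as 2.92% with A_33 (3666 tested), so that low shares were not limited to A_21. With prefix A_19, 1 of 88 TCONS probes and 9 of 148 NM_ probes were past the threshold, which is 0.794% and 3.57% when weighted. The prefix was set apart after the data were seen, and its part in the share was not tested.

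**Figure D4:**
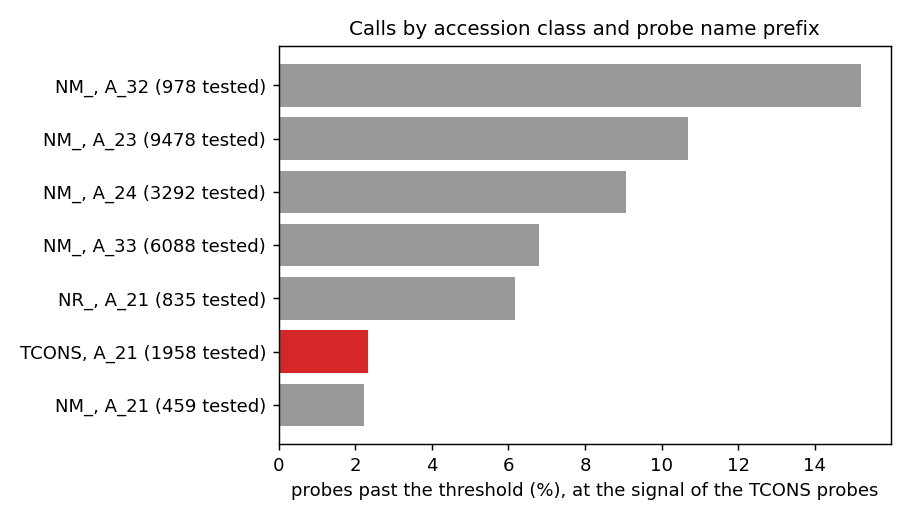
Percent of tested probes past the threshold (x axis), weighted to the signal of the TCONS probes, for classes of identifier and prefixes of the probe name (y axis, number of tested probes in parentheses). The A_21 TCONS probes (2.32%, red) and the A_21 NM_ probes (2.22%) are the lowest bars, and the bar of the A_32 NM_ probes reaches 15.2%. Prefix A_19, with 88 TCONS probes, is not drawn. Neither are probes with other kinds of identifier, nor NR_ probes of other prefixes.

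Of the 36 TCONS probes that were higher, TCONS_00008203 rose by far the most. Its level was -6.36, -6.31 and -6.29 on the control arrays, none of them well above background, and 1.68, 1.76 and 2.30 on the LOX-PP arrays, all of them above background. The probe thus went from not detected to above the 75th percentile of the array, and was at least 243-fold higher against the floor of each control array and at least 105.6-fold higher against 1 floor for all arrays (adjusted p = 0.000111, limma, and 0.00174 with no filter on dim probes). The floor of an array is the lowest signal among its probes above background, or the probe's own signal where that is higher, and the single floor is the highest of these lowest signals. With normexp background correction its fitted change was 6.34 on the log2 scale. This is less than the 6.72 of the bound with 1 floor, so that both bounds hold for the processed signal only.

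For 3 further probes no control array was above background, so that only bounds are given. Like TCONS_00008203, they were tested only because all LOX-PP arrays were above background, and the calls of these 3 were lost with no filter on dim probes. TCONS_00014243 had levels of -5.91, -7.62 and -6.07 in the control cells and -3.11, -3.05 and -3.62 in the LOX-PP cells (at least 7.21-fold higher by array and 2.92-fold with 1 floor, adjusted p = 0.0133, and 0.0543 with no filter). Levels of TCONS_00020779 were -6.39, -6.05 and -6.16 in the control cells and -4.47, -3.07 and -2.94 in the LOX-PP cells (at least 5.44-fold higher by array and 2.49-fold with 1 floor, adjusted p = 0.0168, 0.126 with 1 floor and 0.0664 with no filter). TCONS_00028993 was at least 5.36-fold higher by array and 1.98-fold with 1 floor (adjusted p = 0.0249, 0.130 with 1 floor and 0.0908 with no filter), and its call was also lost without control replicate 1 or 2 and with normexp. In each of these the lowest LOX-PP array stood above the highest control array. With normexp their fitted changes were 1.80, 1.70 and 1.45 on the log2 scale, in that order, less than their bounds by array. A further 22 of the 36 were above background on 1 or 2 of the control arrays, and 10 on all 6 arrays.

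TCONS_l2_00012420, above background on all 6 arrays, had levels of -4.46, -4.30 and -2.97 in the control cells and -0.33, -0.72 and -0.35 in the LOX-PP cells. It rose by 3.44 ± 0.42 (SE, adjusted p = 0.00691), and the highest control array was replicate 3. The levels of TCONS_00019257 were -4.56, -4.76 and -4.29 on the control arrays, 2 of them above background, and -1.30, -1.49 and -0.82 on the LOX-PP arrays. This was a rise of 3.33 ± 0.26 (SE, adjusted p = 0.00159), with arrays of each group close together.

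Other large rises had more spread. TCONS_00003537 rose by 3.87 ± 0.62 (SE, adjusted p = 0.0184), from -4.90, -6.00 and -4.13 on the control arrays to -1.98, -1.37 and -0.06 on the LOX-PP arrays. TCONS_00020641 had levels of -4.56, -5.46 and -2.19 on the control arrays, control replicate 3 being the highest, and -0.05, 0.02 and -0.72 on the LOX-PP arrays (rise of 3.82 ± 0.78, SE, adjusted p = 0.0395). The groups did not overlap, but the control arrays of TCONS_00020641 spanned a wide range, and its call was lost without any one of control replicates 1 and 2 and LOX-PP replicates 1, 2 and 3. TCONS_l2_00006293, TCONS_00028124 and TCONS_00018256 rose by 3.03, 3.02 and 2.53, each with 1 or 2 control arrays above background. Calls were also lost for TCONS_00003537 without control replicate 1 or 2 or LOX-PP replicate 2, and for TCONS_l2_00006293, TCONS_00028124 and TCONS_00018256 without control replicate 2 or LOX-PP replicate 2 and without further single arrays. TCONS_00020779 above lost its call without control replicate 1 or 2.

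Among the 10 probes that were lower, TCONS_l2_00007925 fell the most. Its levels were 1.39, 1.23 and 0.97 in the control cells and -2.59, -1.96 and -3.04 in the LOX-PP cells, all of them above background. The change was -3.73 ± 0.32 (SE, adjusted p = 0.00199), and all control arrays lay above the 75th percentile and all LOX-PP arrays below it. TCONS_00021437 had levels of -1.11, -0.89 and -0.32 in the control cells and -4.53, -4.03 and -4.26 in the LOX-PP cells, 2 of these above background (change of -3.50 ± 0.28, SE, adjusted p = 0.00168). TCONS_00012744, above background on all 6 arrays, went from -1.31, -1.41 and -1.59 to -3.77, -3.50 and -3.72 (change of -2.23 ± 0.21, SE, adjusted p = 0.00291). For both, each LOX-PP array lay well below the lowest control array.

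TCONS_00006635 was bright, with levels of 1.90, 1.89 and 2.09 in the control cells and -0.01, 0.34 and -0.69 in the LOX-PP cells (change of -2.08 ± 0.30, SE, adjusted p = 0.0132). TCONS_00022548 changed by -3.24 ± 0.48 (SE, adjusted p = 0.0144), with a single LOX-PP array above background. The other 5 falls, of TCONS_l2_00017151, TCONS_l2_00028295, TCONS_00001231, TCONS_l2_00014098 and TCONS_00024743, lay between -1.93 and -1.32. Of the 10 lower probes, 6 were above background on all 6 arrays, and the other 4 on 1 or 2 of the LOX-PP arrays. Without control replicate 1 or 2 the calls of TCONS_00006635 and TCONS_00022548 were lost, and each of the 5 smaller falls was lost without at least 1 single array of either group.

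**Figure D5:**
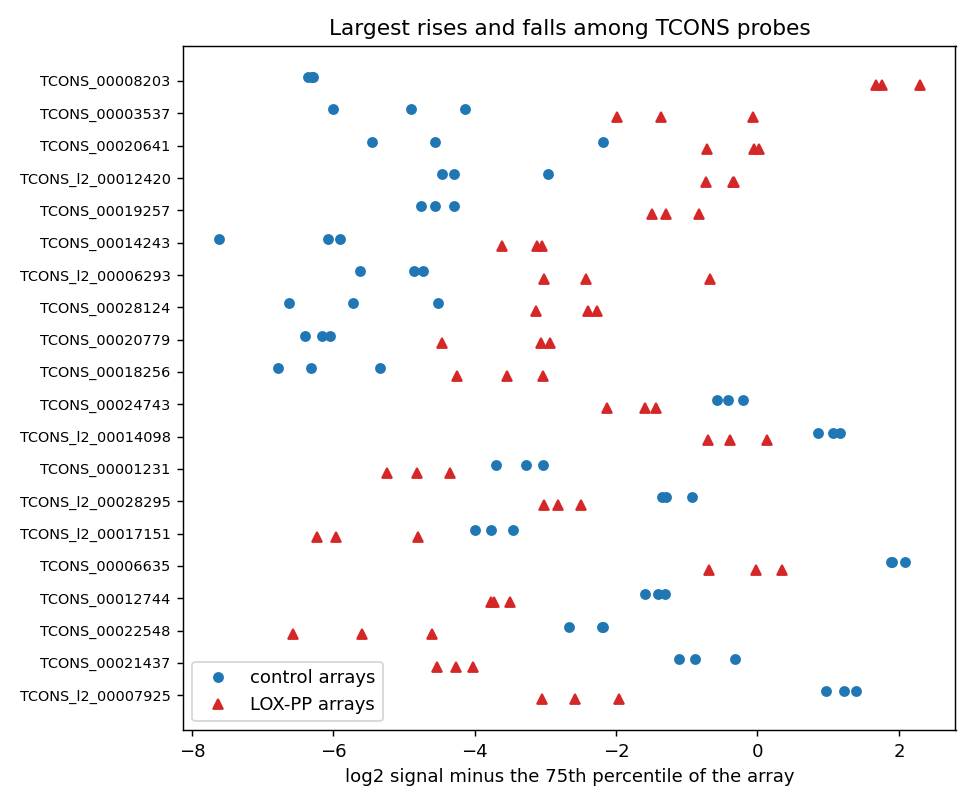
Log2 signal minus the 75th percentile of the array (x axis) for the 10 largest rises and the 10 largest falls among the TCONS probes past the threshold (y axis), with control arrays as circles and LOX-PP arrays as triangles. The groups do not overlap for any of these probes, and TCONS_00008203 has the widest gap, from -6.29 on the highest control array to 1.68 on the lowest LOX-PP array.

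Of the 46 calls, 8 were lost under none of the alternatives of processing that tested them: TCONS_00008203, TCONS_00019257, TCONS_00002078, TCONS_00026930 and TCONS_l2_00012515 among the rises, and TCONS_l2_00007925, TCONS_00021437 and TCONS_00012744 among the falls. TCONS_00008203 was tested in 12 of the 16 alternatives, since it dropped out of the filter wherever a LOX-PP array was left out or all 6 arrays had to be above background, and the others were tested in 15 or 16. TCONS_00002078 had levels of -5.20, -5.29 and -5.61 in the control cells and -3.40, -3.20 and -3.23 in the LOX-PP cells (rise of 2.09 ± 0.22, SE, adjusted p = 0.00395). TCONS_00026930 rose by 2.00 ± 0.24 (SE, adjusted p = 0.00648) and TCONS_l2_00012515 by 2.48 ± 0.25 (SE, adjusted p = 0.00367). These 3 were singled out after their values were seen, and 31 of the 46 calls were lost under at least 5 alternatives.

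At the threshold, the 3 probes just inside were TCONS_l2_00016224, TCONS_00020316 and TCONS_00013319 (adjusted p = 0.0452, 0.0490 and 0.04997, limma), with rises of 1.23, 1.25 and 1.13. The 3 just outside were TCONS_00020968, TCONS_l2_00014844 and TCONS_00012191 (adjusted p = 0.0503, 0.0520 and 0.0534), with changes of 1.28, 1.39 and 1.31, as large as those inside.

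The 5 brightest TCONS probes all carried the l2 mark. TCONS_l2_00010291 had levels of 5.97, 6.25 and 6.29 in the control cells and 7.55, 6.22 and 7.06 in the LOX-PP cells. LOX-PP replicates 1 and 3 were above the controls and replicate 2 was among them. The changes of TCONS_l2_00010291, TCONS_l2_00005546, TCONS_l2_00016171, TCONS_l2_00009118 and TCONS_l2_00030171 lay between 0.73 and 0.78, and did not pass the threshold (adjusted p from 0.242 to 0.313). In all 5, LOX-PP replicate 2 was the lowest of its group.

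The 3 identifiers with a gene name were singled out for that name. HOTAIR had levels of -2.15, -2.38 and -1.91 in the control cells and -2.39, -1.50 and -1.91 in the LOX-PP cells, all above background (change of 0.21 ± 0.29, SE, adjusted p = 0.722). GNASAS, an antisense transcript of the imprinted GNAS locus, had levels of -1.73, -2.29 and -2.05 in the control cells and -1.91, -2.51 and -2.68 in the LOX-PP cells (change of -0.34 ± 0.29, SE, adjusted p = 0.539). The groups overlapped for both. HOTTIP was above background on a single array, of the control group, and was not tested.

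For 73 TCONS identifiers the array holds several probes, and 18 of these had more than 1 tested probe (41 probes). The changes of all tested probes of an identifier had the same sign for 9 of the 18, and their range had a median of 0.42 on the log2 scale. Some differing signs were of changes near 0, such as -0.02 and 0.004 for TCONS_00024895. Both probes of TCONS_l2_00005178, above background on every array, fell alike, with changes of -0.88 and -0.91 (adjusted p = 0.0925 and 0.0793, limma). These 2 identifiers were picked after their values were seen. TCONS_00018649 had the widest range, 2.61, with changes of 0.06 and 2.66. The larger change rested on LOX-PP replicate 3, since the levels of that probe were -1.95, -1.68 and 3.62 on the LOX-PP arrays, and without that replicate the changes were 0.23 and 0.85 and the range 0.62. The 6 probes of TCONS_00016491 ran from -0.08 to 1.28. By limma 0 of the 41 reached an adjusted p under 0.05, so that no call could be set against another probe of its transcript. An unadjusted p under 0.05 was found for 5 of the 41. The shares were 2.25% and 11.2% over the tested TCONS probes, and 5.66% and 21.3% over all tested probes.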

How the data were processed

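RNA of 3 A673/TR/empty and 3 A673/TR/LOX-PP cultures was measured on 6 Agilent SurePrint G3 arrays. The authors deposited the spot intensity written by Feature Extraction (version 10.7), with a background-corrected signal and flags for spots well above background and outliers. They also deposited a table of log2 values, which match the values computed here to 0.02 on 50537 of 50599 probes once the median of a probe is taken off. Methods of the paper name no normalization.

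Control spots and outlier spots (213 to 353 per array) were left out, spots of the same probe were averaged on the log2 scale, and arrays were scaled by taking off their 75th percentile. TCONS probes have 1 spot each. The test was limma (3.58.1, R 4.3.3) with no blocking factor, on probes well above background on 3 or more arrays, and the threshold was an adjusted p (Benjamini-Hochberg) under 0.05. NM_ probes were weighted to the TCONS probes in steps of 0.5 of mean log2 signal. The probes named are the 10 largest rises and falls past the threshold without overlap, the 5 brightest, and the 3 on each side of the threshold; probes past it whose transcript had another tested TCONS probe would have been named, and there were 0. Members and lists were chosen with earlier results of these data known. The methods name 3 separate experiments with control and LOX-PP cells, and whether the arrays are paired by experiment is not stated.

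Alternatives were 2 other scalings, the authors' log2 table, normexp background correction (offset 50, on the median spot signal), 2 other filters, the slide and the replicate number as blocks, the methods' t-test, 1 floor for all arrays, other matching, and leaving out each array. The limma fit was tested on simulated arrays with independent noise per probe. That noise held no shifts of whole arrays and no background, so the test does not cover these. The matching weights were checked on the mean signal of the probes.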

Additional observations from a re-analysis of the deposited data

How the results depend on the processing

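Of the TCONS probes, 2046 were well above background on at least 3 arrays, 916 on all 6 and 3427 on at least 1, and with 1 array left out and the filter at 3 of the remaining 5 arrays 1586 to 1990. The number past the threshold (46) was 11 of 6153 with no filter on dim probes and 22 of 916 with probes above background on all 6 arrays. It was 12 in the methods' t-test, 80 with the slide as a block and 22 with a replicate block, of which 21 were among the 46. Over all tested probes the share was 1.02%, 6.99%, 1.73%, 6.32% and 2.63% in that order. LOX-PP replicate 1 is alone on its slide, so that the slide block and leaving out this array are not separate checks. The number past the threshold ran from 11 to 83 when 1 array was left out, and stayed between 36 and 47 under the other alternatives. Whether samples with the same replicate number share an experiment is not stated. Their deviations correlated at 0.27, -0.39 and 0.23 over all tested probes, and not every sample correlated best with its own number. With 3 arrays per group these values cannot settle whether the samples are paired. Of the 41 probes of transcripts with several tested probes, 0 passed the methods' t-test after adjustment and 6 without it. Of the 2046 tested TCONS probes 12 and 171 did so, and 1.73% of all tested probes passed it after adjustment. The share of TCONS probes past the threshold minus that of matched NM_ probes (-6.71 percentage points) was -4.31 with normexp, -0.824 with no filter, -5.65 with probes above background on all 6 arrays, -1.38 in the methods' t-test, -3.91 with a replicate block, and between -7.20 and -2.30 without 1 array. Chosen after seeing the data, it was 0.0742 against NM_ probes of prefix A_21, -5.41 with matching on the LOX-PP arrays and -3.77 against NR_ probes. The median change was -0.08 under quantile normalization. The difference in replicate SD (0.016) ran from -0.020 to 0.062, and the difference in detection (-0.771 points) was -0.623, -1.25 and -2.24 under the 3 other ways of matching. The probes named by the rule gave 333 values on the same side of the threshold as reported, 127 no longer past it, 7 newly past it and 0 of opposite direction. The causes were not tested. Most TCONS probes lie near the background, so that a probe without a call is not shown to be unchanged.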
